A study of Homo sapiens with 8 samples.

Results

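The genes described here were GDF15, ASNS, ATF4, ATF3, DDIT3, CHAC1, TRIB3, SESN2, PSAT1 and PHGDH, which belong to or report on the ATF4 arm of the integrated stress response. Every probe set whose annotation named only one of them is described, and each gene's own value came from the brightest of its probe sets with a single symbol entry. The 10 genes were read among 18239 genes on the array. They were chosen because of the way some of them differed with miR-375-3p in these same arrays, so their differences between the mimics are given as a description without p-values, and calls of the fit across all genes are only counted.

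Whole-cell RNA of Ca9-22, HSC2, HSC3 and SAS-L1, 4 established lines of human oral squamous cell carcinoma (OSCC), was hybridized to Affymetrix U219 arrays. Each line was reverse-transfected with 20 nM of a mimic of mature miR-375-3p or of miR-NT, the non-targeting mimic that served as the negative control, and RNA was taken after 48 h. There were 8 arrays, 1 for each line and mimic. The values were log2 signals, on which a difference of 1 is a 2-fold change. Wherever values of all lines follow each other, the order is SAS-L1, then HSC2, then HSC3, then Ca9-22. A line had 1 array per mimic, so it had no spread of its own, a difference between lines could not be tested, and a p-value here measures the spread of the difference among the 4 lines. The arrays measured RNA of whole cultures, in which fewer cells with a transcript cannot be told apart from less transcript per cell.

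In the integrated stress response, kinases that sense unfolded protein, amino acid shortage, viral RNA or heme deficiency phosphorylate the initiation factor eIF2. General translation then slows, while the ATF4 mRNA is translated more because of short upstream reading frames in its leader. ATF4 protein, a leucine zipper transcription factor, activates genes for amino acid synthesis and uptake, tRNA charging, redox control and, under lasting stress, cell death. Control of ATF4 lies largely in translation, which an mRNA array does not measure.

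The mature miRNA after which the mimic was named is shown with its seed, bases 2 to 8, in capitals, as RefSeq gives it on GRCh38.p14 at chr2:219001648-219001669, minus strand. Its sequence identifies the treatment.
hsa-miR-375-3p: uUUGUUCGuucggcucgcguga

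ATF4 binds DNA as a heterodimer with C/EBP proteins at C/EBP-ATF response elements. The core TGATGNAA was searched on both strands of the RefSeq promoter windows, which span 250 bases before to 50 bases after a transcription start. It was present in 3 of 16 windows, in ATF3, ASNS and CHAC1, which were 3 of the 10 genes, against 3.62% of 35116 windows of all genes. The palindromic cAMP response element TGACGTCA was in none of the 16 windows and in 1.85% of all windows. The bases around each match are shown 5′ to 3′ on the strand of the gene, with the match in capitals, because ASNS and CHAC1 are among the genes on which the results turn. They lie at chr1:212565190-212565249 (plus strand, match starting 191 bases before the start), chr7:97872443-97872502 (minus strand, 68 bases before) and chr15:40953236-40953295 (plus strand, 209 bases before) of GRCh38.p14.
ATF3: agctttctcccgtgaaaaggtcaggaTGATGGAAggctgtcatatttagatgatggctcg
ASNS: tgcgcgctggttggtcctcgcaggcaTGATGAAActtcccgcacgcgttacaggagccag
CHAC1: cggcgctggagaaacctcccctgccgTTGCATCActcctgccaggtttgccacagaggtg
The match of CHAC1 is the core read on the opposite strand. A match of letters does not show that a site is used.

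The array medians lay between 4.96 and 5.00, since the authors had normalized the arrays to one distribution. Of the squamous epithelial markers, 4 of 5 measured were above the median of all genes on every array, whereas KRT14 ranged from 4.05 to 11.3. The log2 of their summed signal was 12.3 to 13.3 with miR-NT and 11.95 to 12.99 with miR-375-3p. KRT5 fell by 1.73 and SFN by 0.43 with the mimic (adjusted p = 0.0320 and 0.0293, limma), calls that held only without HSC3 when 1 line was left out (0.0201 and 0.0488). All 5 fibroblast markers were below the median of all genes on every array, as were 4 of 6 immune and endothelial markers, and CD68 was above it. The summed signals of the fibroblast list were 6.42 to 6.64 with miR-NT and 6.45 to 6.67 with miR-375-3p, and those of the immune and endothelial list were 7.62 to 7.80 and 7.68 to 7.77.

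GDF15, a secreted member of the TGF-beta superfamily whose transcription stress factors such as ATF4, DDIT3 and p53 can raise, had the widest mean difference of the 10 genes. With miR-NT its signal was 4.33 for SAS-L1, 4.76 for HSC2, 4.03 for HSC3 and 8.70 for Ca9-22. With miR-375-3p it was 5.35, 5.66, 7.02 and 10.65. Every line was thus higher with the mimic, while Ca9-22 with miR-NT stood above the other 3 lines with either mimic, so the groups overlapped. The differences were 1.02, 0.90, 2.99 and 1.95, or 2.02-, 1.86-, 7.96- and 3.85-fold. Their mean was 1.71 ± 0.97 (SD, n = 4 lines), or 3.28-fold. The miR-NT signals of SAS-L1, HSC2 and HSC3 were below 5.00, the median of all probe sets on the miR-NT arrays. Whether signals that low change the size of a difference was not tested. The array had 2 further probe sets in whose annotation GDF15 was entered more than once, which were kept out of the values above although both were brighter on average. Over all 3, the mean difference ranged from 1.29 to 1.71, and the probe set used had the largest. The brighter probe sets gave 2.45- and 2.54-fold on average. The difference in HSC3 ranged from 1.76 to 2.99 and that in Ca9-22 from 1.95 to 2.14, so which of these lines had the larger difference depended on the probe set.

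**Figure D1:**
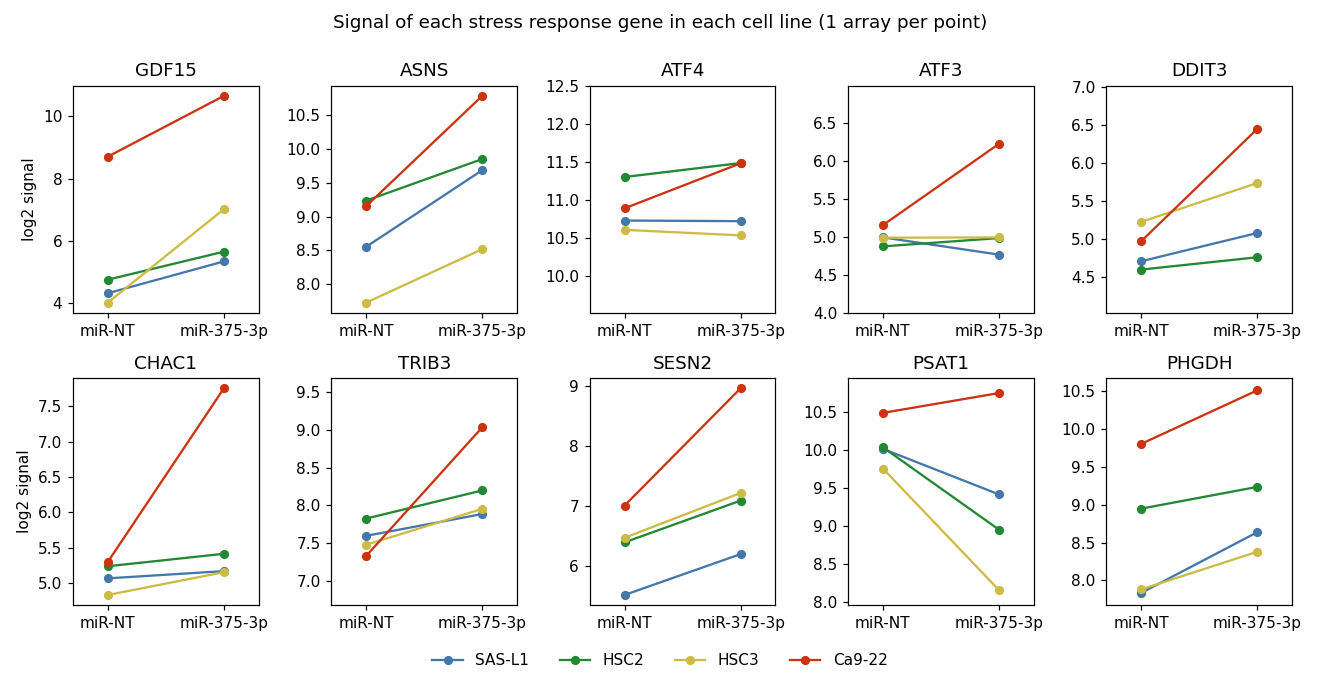
Log2 signal of each of the 10 genes with miR-NT and with miR-375-3p, 1 array per point, with a line joining the arrays of 1 cell line and a separate vertical scale of log2 signal for each gene. GDF15 in Ca9-22 starts at 8.70 with miR-NT and lies above every other line, and PSAT1 is the gene in which SAS-L1, HSC2 and HSC3 decline while Ca9-22 does not.

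ATF4 itself differed little. Its signal with miR-NT was 10.73, 11.30, 10.60 and 10.89, and with miR-375-3p it was 10.72, 11.49, 10.53 and 11.48. The differences were -0.01, 0.18, -0.07 and 0.59 (mean 0.17 ± 0.30, SD, n = 4). Thus 2 lines were within 0.1 of their own miR-NT array, and Ca9-22 had the largest difference. ATF4 was read from 1 probe set, whose probes can also bind related transcripts.

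ATF3, a stress-induced factor of the same family that ATF4 activates, was near the middle of all probe sets. With miR-NT it was 5.00, 4.88, 4.99 and 5.16 by line, and with miR-375-3p it was 4.77, 4.99, 5.00 and 6.23. Ca9-22 with the mimic was the only array apart from the rest. The differences were -0.23, 0.11, 0.00 and 1.07 (mean 0.24 ± 0.57, SD, n = 4), and the mean was -0.04 without Ca9-22. Among its 7 probe sets the difference in Ca9-22 ranged from 0.05 to 2.36. The widest, from 5.22 to 7.58, came from a probe set other than the brightest, so the value of ATF3 in Ca9-22 depended on the probe set.

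DDIT3, also called CHOP, the factor through which prolonged stress turns toward cell death, was likewise dim. Its miR-NT signals were 4.71, 4.60, 5.23 and 4.97 by line, and its mimic signals were 5.08, 4.76, 5.74 and 6.45. Each line was higher with the mimic, and the groups overlapped because HSC3 with miR-NT exceeded SAS-L1 and HSC2 with the mimic. The differences were 0.37, 0.16, 0.51 and 1.48 (mean 0.63 ± 0.58, SD, n = 4). Both of its probe sets put Ca9-22 highest, at 1.48 and 1.76.

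Among the genes of amino acid supply, ASNS and PHGDH were higher in every line, whereas PSAT1 was lower in 3 lines. ASNS makes asparagine from aspartate and glutamine and is a classical ATF4 target. Its miR-NT signals were 8.55, 9.24, 7.73 and 9.16 by line, and its mimic signals were 9.69, 9.85, 8.52 and 10.79. HSC3 was the lowest line with either mimic. On the probe set used, HSC3 with the mimic lay just below SAS-L1 with miR-NT, at 8.52 against 8.55. Of the other probe sets, 1 had it below as well (8.39 against 8.48) and 2 had it above (8.22 against 8.15 and 7.64 against 7.60). The differences were 1.13, 0.62, 0.79 and 1.63, or 2.19-, 1.53-, 1.73- and 3.10-fold. Their mean was 1.04 ± 0.45 (SD, n = 4), or 2.06-fold, and the 4 probe sets of ASNS gave means of 0.96 to 1.12. The narrow range over probe sets contrasts with that of ATF3. Like that of ATF4, the probe set used for ASNS has probes that can also bind related transcripts.

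PHGDH catalyzes the first step of serine synthesis from glycolysis. Its signals were 7.84, 8.95, 7.88 and 9.80 with miR-NT and 8.64, 9.23, 8.38 and 10.51 with miR-375-3p. The line order by signal with miR-NT was Ca9-22, HSC2, HSC3 and SAS-L1, of which the last pair differed by less than any line differed between the mimics. The differences were 0.80, 0.29, 0.50 and 0.71 (mean 0.57 ± 0.23, SD, n = 4), or 1.49-fold on average, from 1 probe set.

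PSAT1, the aminotransferase of the next step of serine synthesis, went the other way in SAS-L1, HSC2 and HSC3. Its signals were 10.02, 10.04, 9.76 and 10.49 with miR-NT and 9.42, 8.95, 8.16 and 10.76 with miR-375-3p. The differences were -0.60, -1.09, -1.60 and 0.26, so PSAT1 was 1.52-fold lower in SAS-L1, 2.12-fold lower in HSC2 and 3.04-fold lower in HSC3. In Ca9-22 it was slightly higher. The mean was -0.76 ± 0.79 (SD, n = 4), and it was -1.10 ± 0.50, or 2.14-fold lower, over the 3 lines without Ca9-22. All 8 probe sets of PSAT1 had this pattern, with differences of -1.78 to -1.08 in HSC3 and of 0.17 to 0.35 in Ca9-22. The first 2 enzymes of serine synthesis therefore differed in opposite directions in 3 of the 4 lines. PSPH, which completes the pathway, was no member of the 10 genes and rose by 0.41 ± 0.22 (SD, n = 4, adjusted p = 0.0406, limma), in every line. This call was lost whichever line was left out (adjusted p = 0.0718 to 0.104, limma).

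**Figure D2:**
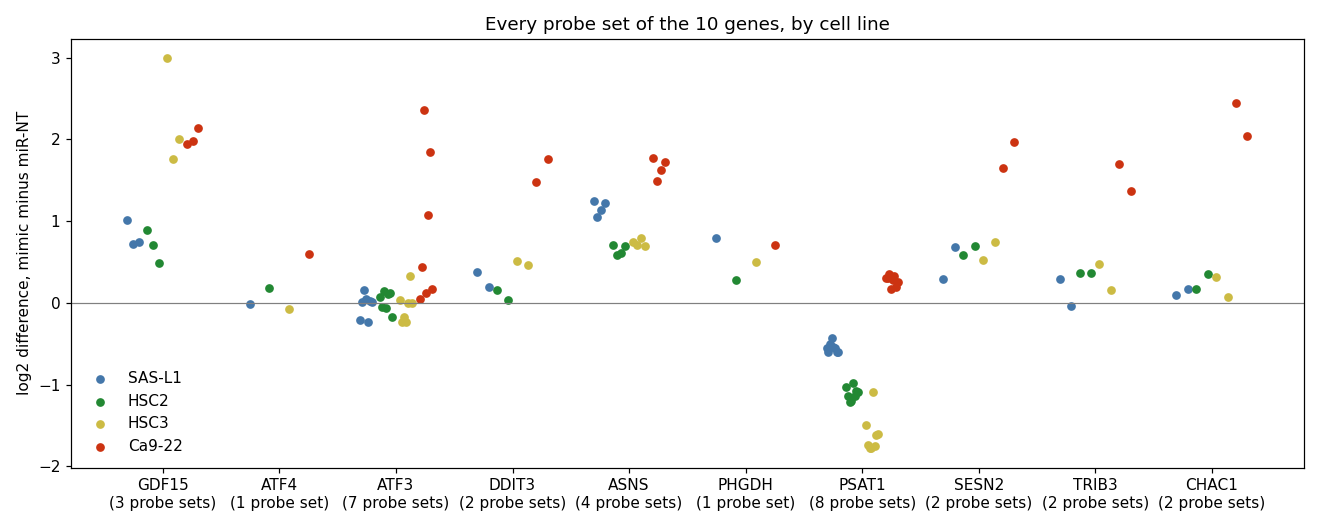
Log2 difference, mimic minus miR-NT, of every probe set of the 10 genes, with 1 point per probe set and cell line. The 8 probe sets of PSAT1 lie together below 0 in SAS-L1, HSC2 and HSC3 and above 0 in Ca9-22, whereas the 7 of ATF3 spread from 0.05 to 2.36 in Ca9-22.

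SESN2, TRIB3 and CHAC1 act as effectors and brakes. SESN2 is a leucine-binding protein that restrains mTORC1, and it is activated by ATF4, p53 and NRF2. Its signals were 5.51, 6.39, 6.46 and 7.00 with miR-NT and 6.19, 7.09, 7.22 and 8.97 with miR-375-3p by line. The differences were 0.68, 0.70, 0.75 and 1.97 (mean 1.03 ± 0.63, SD, n = 4), or 2.04-fold on average. Outside Ca9-22 the lines lay close together, with a mean of 0.71 ± 0.04 (SD, n = 3). Its other probe set gave differences of 0.29, 0.59, 0.53 and 1.65, so the close values of the brighter probe set were not shared by both.

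TRIB3 is a pseudokinase that ATF4 and DDIT3 induce and that holds them back in turn. Its signals were 7.60, 7.83, 7.48 and 7.33 with miR-NT and 7.89, 8.20, 7.95 and 9.03 with miR-375-3p. It was the only one of the 10 genes in which all mimic arrays lay above all miR-NT arrays, which held for 1.94% of all genes. Ca9-22 went from the lowest line to the highest. The differences were 0.29, 0.37, 0.47 and 1.70 (mean 0.71 ± 0.66, SD, n = 4). The dimmer probe set of TRIB3 had a difference of -0.03 in SAS-L1 and of 1.37 in Ca9-22.

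CHAC1 degrades glutathione and lies downstream of ATF4, ATF3 and DDIT3. Its signals were 5.07, 5.24, 4.83 and 5.30 with miR-NT and 5.17, 5.41, 5.15 and 7.75 with miR-375-3p. Only Ca9-22 with the mimic stood clear of the other 7 arrays. The differences were 0.10, 0.18, 0.32 and 2.45, which is 5.47-fold in Ca9-22, and the mean of 0.76 ± 1.13 (SD, n = 4) became 0.20 ± 0.11 (SD, n = 3) without that line. Its 2 probe sets gave 2.05 and 2.45 in Ca9-22.

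**Figure D3:**
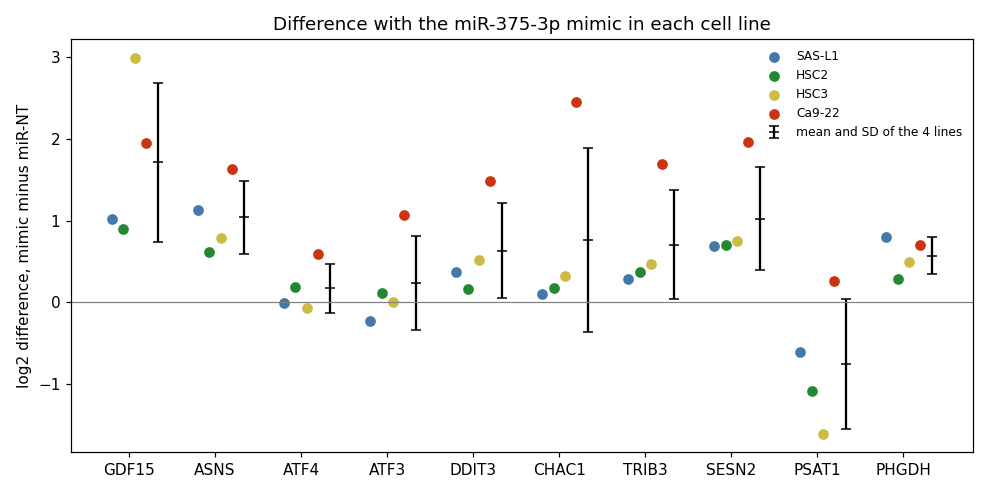
Log2 difference, mimic minus miR-NT, of the 10 genes in each cell line (colored points), with the mean and the SD of the 4 lines in black. Ca9-22 is the highest point for 8 genes, HSC3 for GDF15 and SAS-L1 for PHGDH, and PSAT1 alone has 3 points well below 0.

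Over the 10 genes, 7 were higher with the mimic in all 4 lines, against 20.9% of all genes. The median of their mean differences was 0.67, against 0.03 for all genes, and it was 0.36 without Ca9-22. In the paired fit across all genes (limma, Benjamini-Hochberg adjusted p under 0.05), GDF15, ASNS, SESN2 and PHGDH were called higher, which was 4 of 10, none was called lower and 6 were not called. Of all genes, 7.36% were called higher and 5.19% lower. The 10 genes were chosen on this contrast, so nothing is read from their count. When HSC2 was left out, ASNS and PHGDH were called higher, with 318 genes in all. When Ca9-22 was left out, ASNS and SESN2 were called higher and PSAT1 lower, with 625 genes called higher in all. Without SAS-L1 and without HSC3, the genes called higher were GDF15, ASNS and PHGDH, with 858 and 569 genes in all. SESN2 thus kept its call only without Ca9-22, and ASNS kept it whichever line was left out.

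The lines differed in how far the 10 genes went together. In SAS-L1, 7 of 10 were higher with the mimic, with a median difference of 0.33, and GDF15 and ASNS exceeded 2-fold, as did 0.367% of all genes. GDF15 did so narrowly, at 1.02, and only on the probe set used, since its brighter probe sets gave 0.72 and 0.74 in SAS-L1. In HSC2, 9 were higher, with a median of 0.24, none exceeded 2-fold (0.406% of all genes did) and PSAT1 was over 2-fold lower, as were 1.17% of all genes. In HSC3, 8 were higher, with a median of 0.49, only GDF15 exceeded 2-fold (1.37% of all genes) and PSAT1 was over 2-fold lower (2.2% of all genes). In Ca9-22 all 10 were higher, with a median of 1.56, and 7 exceeded 2-fold, which 0.938% of all genes did. The 3 that did not were ATF4, PSAT1 and PHGDH. The median difference over all genes was 0.01 to 0.05 in the 4 lines. Ca9-22 had the largest difference for 8 of the 10 genes, and for 29.9% of all genes.

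The lines also differed in these genes without miR-375-3p. With miR-NT, Ca9-22 was the highest line for 6 of 10 genes, namely GDF15, ATF3, CHAC1, SESN2, PSAT1 and PHGDH, and it was the highest line for 26.5% of all genes. HSC2 was highest for ASNS, ATF4 and TRIB3, and HSC3 for DDIT3. For ASNS, Ca9-22 and HSC2 lay closer together than the mimic and miR-NT arrays of either. The median range over the 4 miR-NT arrays was 0.72 for the 10 genes and 0.42 for all genes. GDF15 had a range of 4.67, whereas ATF3 had one of 0.28. With miR-375-3p, Ca9-22 was highest for 9 genes, the exception being ATF4, for which HSC2 was higher by less than 0.1.

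GDF15 and ASNS were partly alike in their pattern over the 8 arrays (Pearson r = 0.65). Of the other 9 genes, SESN2 (r = 0.87) and PHGDH (0.87) were most like GDF15, and PHGDH (0.84) and TRIB3 (0.80) most like ASNS. Among 5035 genes with a signal above the median of all genes and a range of at least 1, CHMP4B (0.98), AKNA (0.98), SDHAF2 (0.97) and PHOSPHO2 (0.97) were most like GDF15. CREB3L4 (0.98), ZNF772 (0.98), KLHDC3 (0.97) and TMEM60 (0.97) were most like ASNS. The arrays of a line share its starting level, and both Ca9-22 arrays were the highest of the 8 for GDF15 and for the 4 genes named as like it.

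For comparison, 56 other genes that ATF4 is known to activate were measured, and most did not pass the test. In the paired limma fit 4 rose, 2 fell and 50 were not called, shares near the 7.36% and 5.19% of all genes called higher and lower, and their median difference was 0.16. MARS1, the methionyl-tRNA synthetase, rose by 0.55 ± 0.15 (SD, n = 4, adjusted p = 0.0102), MAP1LC3B, an autophagosome protein, by 0.48 ± 0.11 (adjusted p = 0.00986) and SQSTM1, an autophagy receptor, by 0.37 ± 0.18 (adjusted p = 0.0385, limma), and PSPH was the fourth. Without HSC2 the calls of MARS1 and MAP1LC3B were lost (adjusted p = 0.0537 and 0.0534, limma), and that of SQSTM1 was lost whichever line was left out (adjusted p = 0.0537 to 0.118, limma). Both subunits of the large neutral amino acid transporter fell. SLC7A5 was 1.76-fold lower (-0.82 ± 0.10, SD, n = 4, adjusted p = 0.00401, limma) and kept its call whichever line was left out. SLC3A2 was 1.35-fold lower (-0.44 ± 0.18, adjusted p = 0.0236, limma), and its call was lost without SAS-L1, HSC2 or HSC3 (adjusted p = 0.0565, 0.0973 and 0.0649).

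By role, 1 of 10 genes of amino acid and one-carbon synthesis rose and none fell, and 2 of 9 transporters fell and none rose. Of 13 tRNA charging genes 1 rose, of 10 transcription factors and feedback genes none passed (1 was higher and 1 lower at an unadjusted p under 0.05, limma), and of 14 secreted and other products 2 rose. As with the 10 genes, Ca9-22 stood apart from the other lines. The median difference of the 56 genes was 0.03, 0.05 and 0.10 for SAS-L1, HSC2 and HSC3 and 0.45 for Ca9-22, and Ca9-22 had the largest difference for 38 of 56. The list of 56 genes was written with earlier results of these data known, so its share beyond 2-fold is a description. None exceeded 2-fold in SAS-L1, HSC2 or HSC3, and 8 did in Ca9-22 (14.3%, against 0.938% of all genes). These were STC2 (2.18), TSC22D3 (1.74), INHBE (1.48) and BBC3 (1.04) and, named after their values were seen, CTH (2.21), DDIT4 (1.48), NUPR1 (1.26) and TNFRSF10B (1.20). Of these, INHBE and NUPR1 were dim in Ca9-22 with miR-NT, at 3.59 and 4.29. None of the 8 passed the test over the 4 lines (adjusted p = 0.111 for TSC22D3 to 0.695 for DDIT4, limma).

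**Figure D4:**
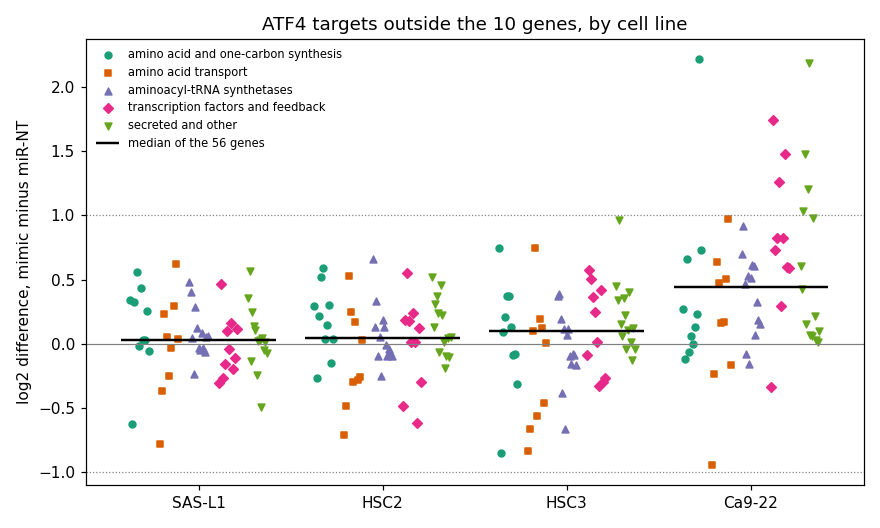
Log2 difference, mimic minus miR-NT, of 56 ATF4 targets outside the 10 genes in each cell line, marked by role, with the median of each line as a black bar and dotted lines at 2-fold. The bar is at 0.03, 0.05 and 0.10 in SAS-L1, HSC2 and HSC3 and at 0.45 in Ca9-22, where 8 points pass the upper dotted line.

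Upstream of ATF4, 3 of 17 genes rose and 2 fell, beside 7.36% and 5.19% of all genes. EIF2AK3 (PERK, the kinase of the endoplasmic reticulum) rose by 0.54 ± 0.18 and EIF2AK4 (GCN2, the kinase that senses uncharged tRNA) fell by 0.48 ± 0.15 (SD, n = 4, adjusted p = 0.0135 and 0.0142, limma), and both calls were lost without HSC2 (adjusted p = 0.0538 and 0.0543). IMPACT, an inhibitor of GCN2 activation, fell by 0.37, and EIF2B4, a subunit of the eIF2 exchange factor, rose by 0.51 (adjusted p = 0.0173 and 0.0231, limma). OMA1, a mitochondrial protease and named after its value was seen, rose by 0.38 (adjusted p = 0.0398, limma). IMPACT kept its call only without SAS-L1 (adjusted p = 0.0462), EIF2B4 only without Ca9-22 (0.0307) and OMA1 only without HSC2 (0.0465). These are mRNA levels, and the phosphorylation through which the kinases act was not measured.

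Several of the 10 genes answer to other factors as well, so lists for those were read in the same fit, with the same shares of all genes called (7.36% higher and 5.19% lower). Of 7 tRNA synthetases not listed as ATF4 targets, KARS1 fell by 0.29 (adjusted p = 0.0258, limma), and its call was lost whichever line was left out (adjusted p = 0.0773 to 0.0846). Of 14 genes of the XBP1 and ATF6 arms of the unfolded protein response, DNAJB9 rose by 0.63 and kept its call whichever line was left out, SEC61B rose by 0.24 and PDIA4 fell by 0.62 (adjusted p = 0.00525, 0.0467 and 0.0420, limma), and the calls of the last pair were lost whichever line was left out (adjusted p = 0.0617 to 0.144). HSPA5, the main chaperone of the endoplasmic reticulum and named after its value was seen, differed by 0.06 ± 0.07 (adjusted p = 0.646, limma). Of 12 p53 targets, RRM2B rose by 0.94, TP53INP1 by 0.87, SESN1, a relative of SESN2, by 0.78 and, named after its value was seen, TP53I3 by 0.52, while MDM2 fell by 0.74 (adjusted p = 0.00822, 0.0141, 0.0192, 0.0285 and 0.0127, limma). Without HSC2 the calls of SESN1, TP53I3 and MDM2 were lost (adjusted p = 0.0842, 0.0828 and 0.0537, limma). Those of SESN1 and TP53I3 were also lost without Ca9-22 (0.0626 and 0.0885), and that of TP53I3 without HSC3 (0.0512). Of 9 NRF2 targets 3 rose (GCLC by 0.54, AKR1C1 by 0.48 and, named after its value was seen, GCLM by 0.36) and 2 fell (ME1 by 1.48 and TXNRD1 by 0.62), with adjusted p = 0.0306, 0.0261, 0.0478, 0.00879 and 0.0278 (limma). Without HSC2 none of these 5 kept its call (adjusted p = 0.0526 to 0.170, limma). ME1 kept it without each of the other lines, AKR1C1, GCLM and TXNRD1 only without SAS-L1 (0.0226, 0.0420 and 0.0147) and GCLC only without Ca9-22 (0.0220). Of 9 genes of amino acid sensing by mTORC1, SESN1 alone was called. The part of these lists in the values of SESN2 and GDF15 was not tested.

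The receptor of GDF15 was near the bottom of the signal range. GFRAL, its binding subunit, had a mean of 3.12 with miR-NT and 3.06 with miR-375-3p, and RET, its signaling partner, 3.82 and 3.85, below 3.88, the lower quartile of all probe sets. Neither passed the test (adjusted p = 0.551 and 0.864, limma).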

How the data were processed

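Total RNA of 4 OSCC cell lines was measured on 8 Affymetrix U219 arrays. The values deposited by the authors were log2 signals from RMA, a procedure of background correction, quantile normalization to a common distribution and summary per probe set. No scanner file was read, and the background step was therefore kept as given. Arrays give no read depth, and their number limits the precision.

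The table held 49386 probe sets, of which 93 were controls. The platform annotation gave 45259 of them 1 symbol entry, 1327 several and 2800 none, and 58 had the same symbol more than once. Symbols were updated through gene identifiers of RefSeq on GRCh38.p14, which matched 45178. For each of 18239 genes the probe set brightest on average over the 8 arrays was taken, among those with 1 symbol entry, with no filter on dim signals. This choice left out 2 probe sets of GDF15 whose symbol was entered more than once, both brighter on average than the one used. Promoter and miRNA sequences were those of RefSeq on GRCh38.p14, matched by symbol or name. All 10 genes had a promoter window.

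Differences, mimic minus miR-NT, were taken within each line. All genes were fitted together with limma 3.58.1 under R 4.3.3, fitting the mimic and a block for each line by lmFit and eBayes. P-values were adjusted by Benjamini-Hochberg over all 18239 genes, at a threshold of 0.05. For the 10 genes the fit's calls are counted as a description, with no p-value. The procedure was tested on simulated data, in which a changed gene had the same fold in every line. Differences confined to a single line were not simulated. The pairing comes from the labels, since both arrays of a pair are of 1 cell line, and both arrays of a line deviated together from the means of their groups (r = 0.836 to 0.886 across genes). The labels do not say how many cultures an array represents.

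The 10 genes and all lists (ATF4 targets in 5 roles, genes upstream of ATF4, other tRNA synthetases, XBP1 and ATF6 arms, p53 and NRF2 targets, the GDF15 receptor, amino acid sensing by mTORC1, and cell type markers) were chosen with earlier results of these data known. Named were the 10 genes and, per list, up to 4 genes with the smallest p and up to 2 beyond 1.5-fold that did not pass, of which those with a role in the account are given. Named as well were the 4 genes most correlated with GDF15 and with ASNS. A few genes of the lists were not analysed here. Alternatives were the fit without the block, array medians subtracted, cyclic loess, the mean of the probe sets, dim genes left out, a trended robust fit, a paired t-test, the methods' t-test, a fold threshold and leaving out each line.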

Additional observations from a re-analysis of the deposited data

Results flagged for a closer look

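Within each group of 4 arrays, and among the 4 differences, a line was singled out where its gap to the nearest other line exceeded Dixon's critical share of the whole range for 4 values. Chance flags about 1 in 20 groups, and 6.1% of all genes passed with miR-NT, 6.2% with miR-375-3p and 5.2% in the difference. In 1.0, 1.6 and 0.9% of all genes the line singled out was Ca9-22 on the high side. All 6 values among the 10 genes were of Ca9-22 on that side. With miR-NT it was GDF15, at 8.70 in Ca9-22 against 4.03 to 4.76 in the other lines. With miR-375-3p these were ATF3, at 6.23 against 4.77 to 5.00, and CHAC1, at 7.75 against 5.15 to 5.41. In the difference these were CHAC1, at 2.45 against 0.10 to 0.32, TRIB3, at 1.70 against 0.29 to 0.47, and SESN2, at 1.97 against 0.68 to 0.75. Each rests on 1 array or 1 pair of arrays of Ca9-22, so a property of the line and a property of those cultures or arrays cannot be told apart. Only the probe set used for each gene was searched. The other probe set gave differences of -0.03, 0.37, 0.16 and 1.37 for TRIB3 and of 0.29, 0.59, 0.53 and 1.65 for SESN2. The brightest probe set of GDF15 had 8.82 in Ca9-22 with miR-NT, against 5.29 to 5.93. Ca9-22 thus stood less far apart on these probe sets.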

How the results depend on the processing

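The differences of the 10 genes kept their direction under every alternative run, except that ATF3 turned from 0.24 to -0.04 without Ca9-22. Under the alternatives that kept all 4 lines, they moved by less than 1 SD of the lines. Leaving out 1 of the 4 lines cannot move a mean by 1 SD of those lines, so that limit is not applied there. The largest move was that of CHAC1, from 0.76 to 0.20 without Ca9-22. Without 1 line, the mean difference was 1.29 to 1.99 for GDF15 and 0.85 to 1.18 for ASNS, and the median of the 10 genes was 0.36 to 0.80. Ca9-22 was the highest miR-NT line for 6 genes under the alternatives run for it.

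The counts of other ATF4 targets depended on the fit, with 4 higher and 2 lower in the paired limma fit. Without the replicate block by line there were 0 and 0 (1 and 1 at an unadjusted p under 0.05, limma), and the paired t-test gave 0 and 0 (6 and 3 unadjusted). The methods' t-test gave 1 and 1 unadjusted and 0 and 0 after Benjamini-Hochberg adjustment. Requiring 1.5-fold as well left 0 and 1. Leaving out 1 line gave 0 to 4 higher and 1 to 2 lower, the 0 without HSC2, where 11 were higher at an unadjusted p under 0.05 (limma). Of the 10 genes, 4 were called higher with the block, 0 without it and 0 by the paired t-test, and 2 to 3 when 1 line was left out, settings added after the data were seen. Over all genes, 1342 were called higher and 946 lower with the block and 0 and 6 without it. The counts were 318 and 350 without HSC2 and 569 and 534 without HSC3. They were 625 and 537 without Ca9-22 and 858 and 797 without SAS-L1. The calls thus rest on the pairing by line and on the number of lines. A mean difference is the same with and without the block by design, because every line had 1 array per mimic.

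With 1 array per line and mimic, no value of a single line has an error. Signals near 5.00, as of ATF3, DDIT3 and CHAC1, are near the median of all probe sets. Those of GDF15 with miR-NT were lower in 3 lines, at 4.03 to 4.76, between that median and the lower quartile of 3.88. Whether signals that low change the size of a difference was not tested.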
